A study of Mus musculus with 6 samples.

Results

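The integrated stress response genes examined here were *Atf4*, *Atf5*, *Ddit3*, *Trib3*, *Chac1*, *Sesn2*, *Asns*, *Psat1*, *Phgdh* and *Mthfd2*, 10 genes chosen by symbol among the 23183 gene symbols measured in every library. RNA came from microvessels isolated from the brains of 3 WT mice (TEK-cre, *Crif1* +/+) and 3 TEKCRIF1 KO mice (TEK-cre, *Crif1* flox/flox), with 1 library per mouse. Both groups carry the Cre recombinase, the strain is given as C57BL/6, no treatment is named, and the age of these mice is not given in the sources used here. Tek drives the Cre in endothelial cells, and Tek is also known to be active in blood cell lineages, whereas cells of the preparation that never express the Cre keep *Crif1*. Levels are FPKM values (fragments scaled to exon length and to the mapped reads of the library), which are per length, so genes can be compared with each other. Values are listed in the order of replicates 1, 2 and 3 within each group.

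The integrated stress response is a shared pathway by which cells react to amino acid shortage, unfolded proteins in the endoplasmic reticulum (ER), viral RNA, heme shortage or failing mitochondria. A family of kinases phosphorylates the translation factor eIF2alpha, which slows protein synthesis as a whole but favors translation of the transcription factor ATF4. ATF4 then switches on genes for amino acid synthesis and import, one-carbon metabolism and feedback on the pathway itself, and in several tissues this program is known to accompany a block of mitochondrial translation. *Crif1* (*Gadd45gip1*) encodes a protein of the mitochondrial ribosome, so the comparison of KO with WT mice asks whether these transcripts differ when it is deleted in endothelium.

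ATF4 binds DNA with C/EBP partners at composite sites with the core TGATGNAA, or TTNCATCA on the other strand. Among the RefSeq promoter windows of GRCm38.p6 (250 bases before to 50 bases after each start), all 10 genes had at least 1 window, and this core was present for 3 of them, *Asns*, *Chac1* and *Trib3*, against 1219 of 27025 genes overall (4.51%). The windows are shown because these genes are the ones in which the core can be seen in front of or at the start. Capitals mark the core. For *Asns* (chr6:7693210-7693459, minus strand) and *Chac1* (chr2:119350992-119351241, plus strand) the 250 bases before the RefSeq start are given, with the core beginning 23 and 193 bases before it. For *Trib3* (chr2:152344028-152344057, minus strand) the core begins at base 15 of the transcript by RefSeq, and 30 bases around it are given. By the GENCODE M21 gene coordinates given below, the core lies inside *Asns* and in front of *Trib3*.
Asns: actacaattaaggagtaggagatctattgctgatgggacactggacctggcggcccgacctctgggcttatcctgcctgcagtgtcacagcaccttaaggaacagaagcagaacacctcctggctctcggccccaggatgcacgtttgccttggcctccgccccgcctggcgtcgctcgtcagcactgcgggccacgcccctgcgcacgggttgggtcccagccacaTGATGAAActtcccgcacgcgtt
Chac1: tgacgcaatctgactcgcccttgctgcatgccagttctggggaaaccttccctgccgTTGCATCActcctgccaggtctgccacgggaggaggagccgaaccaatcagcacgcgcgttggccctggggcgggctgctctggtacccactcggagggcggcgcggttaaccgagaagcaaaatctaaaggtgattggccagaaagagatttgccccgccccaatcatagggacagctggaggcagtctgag
Trib3: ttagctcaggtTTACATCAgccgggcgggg
A match is a description of letters, and no binding was measured. Of the 62 further genes described after the members, 51 had a promoter window and 15 held the core (29.4%).

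The libraries held an estimated 6500000 to 12000000 fragments, read from the spacing of the smallest FPKM values. With mean WT levels of 53.0 FPKM for *Phgdh* and 40.1 FPKM for *Atf5*, the most abundant members rested on 347 to 1810 estimated fragments per library, and *Ddit3* on 36.7 to 117. *Gadd45gip1* was at 15.3 to 18.8 FPKM in WT mice, against 7.54 to 10.8 FPKM in KO mice, a fold of 0.587 (exact permutation p = 0.1; limma p = 0.00534, adjusted p = 0.841), so the targeted transcript went with the labels. The remaining level cannot be divided between endothelial cells and other cells. In bulk RNA, fewer cells of a type and less RNA per cell cannot be told apart. The 7 endothelial markers summed to 784 to 1050 FPKM in WT mice, against 717 to 947 FPKM in KO mice. For 6 of them the groups overlapped, and *Cdh5* (VE-cadherin) was at 86.7, 92.4 and 91.3 FPKM in WT mice, against 50.8, 42.5 and 38.1 FPKM in KO mice. It was the 1 endothelial marker with an unadjusted limma p under 0.05. Markers of neurons, astrocytes, choroid plexus and blood were present in every library as well. The 14247 genes whose mean reached 1 FPKM were tested. Of these, 0 had an adjusted p under 0.05 by limma on log2(FPKM + 1) with Benjamini-Hochberg adjustment, 838 had an unadjusted p under 0.05, and with a library left out up to 4 passed the adjusted threshold.

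Of the 10 genes, 9 were high enough to be tested, and 0 of these passed that adjusted threshold between KO and WT mice (smallest adjusted p = 0.841 by limma). *Ddit3*, which encodes the transcription factor CHOP, was the 1 member with an unadjusted p under 0.05, and it was lower in KO mice, against 3.11% of all genes lower at that level and 2.77% higher. It was also the 1 member whose groups did not overlap, against 5.70% of all genes with every KO value below every WT value and 5.37% with every KO value above. On the log2 scale 4 members had a fold change above 0 and 6 below, where 49.2% of all genes tested were above 0. Their median was −0.09, beside −0.01 over all genes tested. That median turned positive without KO 2 (0.22), without WT 3 (0.11) and after correction for GC content and transcript length (0.02).

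**Figure D1:**
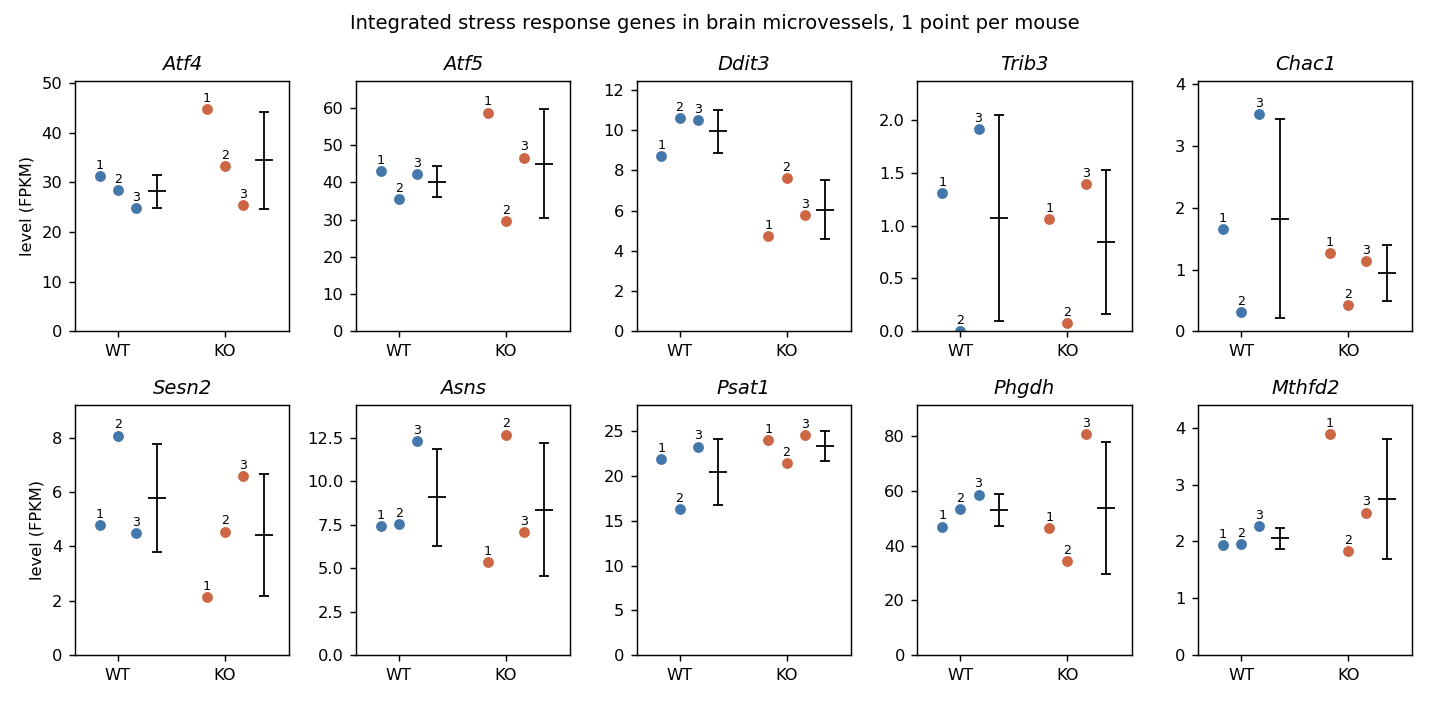
FPKM level of each of the 10 genes in 3 WT mice (blue) and 3 KO mice (orange), with 1 point per mouse labeled by its replicate number and the mean ± SD as a bar beside the points. *Ddit3* is the only panel in which the KO points (4.74 to 7.62 FPKM) lie entirely below the WT points (8.72 to 10.6 FPKM).

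*Atf4*, the transcription factor at the center of the pathway, lies on chromosome 15 (80255184-80257541, plus strand, mm10 as annotated by GENCODE M21). Its level was 31.3, 28.4 and 24.8 FPKM in WT mice, against 44.8, 33.2 and 25.4 FPKM in KO mice. KO 1 was the highest of the 6 mice and WT 3 the lowest, and KO 3 was close to WT 3, so the groups overlapped. The mean was 28.2 ± 3.25 FPKM in WT mice, against 34.5 ± 9.78 FPKM in KO mice (mean ± SD, n = 3 per group), a 1.19-fold difference with a 95% interval of 0.827 to 1.71 (exact two-sided permutation p = 0.4; limma p = 0.31, adjusted p = 0.909). The log2 fold change of 0.25 was 0.05 without KO 1 and 0.45 without KO 3. All folds here are on the log2(FPKM + 1) scale, which understates the change of genes with low levels. ATF4 is controlled in large part by translation, which transcript levels do not show.

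*Atf5*, a related factor that can relocate between mitochondria and nucleus, lies on chromosome 7 (44812256-44816658, minus strand). It was at 42.9, 35.4 and 42.1 FPKM in WT mice, against 58.7, 29.6 and 46.6 FPKM in KO mice. The KO mice held both the highest and the lowest value, and the fold was 1.08 with an interval of 0.729 to 1.61 (exact permutation p = 0.8). The log2 fold change of 0.11 was −0.10 without KO 1 and 0.38 without KO 2.

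*Ddit3*, on chromosome 10 (127290774-127296288, plus strand), encodes CHOP, which partners with C/EBP proteins and with ATF4 and is known for its part in cell death under prolonged ER stress. Its level was 8.72, 10.6 and 10.5 FPKM in WT mice, against 4.74, 7.62 and 5.77 FPKM in KO mice. Every KO mouse lay below every WT mouse, with KO 2 nearest to the WT range. The mean was 9.96 ± 1.07 FPKM in WT mice, against 6.04 ± 1.46 FPKM in KO mice (mean ± SD, n = 3 per group), a difference larger than either SD. The log2 fold change was −0.65 (SE, the standard error, 0.24, 95% interval −1.18 to −0.13), or 0.636-fold (exact two-sided permutation p = 0.1, the smallest that 3 mice against 3 can give; limma p = 0.0203, adjusted p = 0.841). Over the 16 alternatives it stayed between −0.84 and −0.52. Without WT 2, WT 3 or KO 1 the limma p rose to 0.0674, 0.0647 and 0.0784, beside an exact permutation test that cannot go below 0.1. At the lowest level, in KO 1, an estimated 36.7 fragments stood behind the value, a counting error of 16.5%.

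The ratio of *Ddit3* to *Atf4* within a library does not depend on any scaling between libraries. It was 0.278, 0.374 and 0.424 in WT mice, against 0.106, 0.229 and 0.227 in KO mice. The highest KO ratio lay under the lowest WT ratio (exact two-sided permutation p = 0.1). Ratios to *Atf4* were computed for 9 genes, and the groups overlapped for the other 8. Of all genes tested, 11.1% had levels that did not overlap, and the share for ratios to *Atf4* was not computed. By summed level, the lists of astrocyte, fibroblast and microglia markers were also lower in every KO mouse than in every WT mouse. The 6 astrocyte markers summed to 575 to 671 FPKM in WT mice, against 431 to 477 FPKM in KO mice. The 4 fibroblast markers summed to 1190 to 1780 FPKM in WT mice, against 784 to 1090 FPKM in KO mice, and the 5 microglia markers to 94.1 to 106 and 77.1 to 90.3 FPKM. Marker by marker, every KO mouse lay below every WT mouse for 2 of the 6, 2 of the 4 and 1 of the 5 (against 5.70% of all genes tested), and by the mean over markers on the log2 scale the groups overlapped for each list. Among vascular cells the sums overlapped, but 2 of the 6 pericyte markers were lower in every KO mouse, *Anpep* (24.0 to 33.2 FPKM in WT mice, against 19.1 to 23.0) and *Pdgfrb* (36.9 to 45.6 FPKM, against 30.8 to 33.6), as was endothelial *Cdh5*. The pericyte marker *Rgs5* had a log2 fold change of 0.24 with overlap (114 to 185 FPKM, against 149 to 258). Of the 5 oligodendrocyte markers 1 was lower in every KO mouse, *Cnp* (46.2 to 67.4 FPKM, against 33.8 to 38.7). At an unadjusted limma p under 0.05 there were 2, *Cnp* and *Mag*, both lower. Beside these counts stood 5.70% and 3.11% of all genes tested. *Mog* had a log2 fold change of 0.57 with overlap (1.6 to 4.5 FPKM, against 0.986 to 10.2). The oligodendrocyte sums overlapped as well (271 to 392 FPKM, against 145 to 348). All of these markers were above 0 in every library, and their part in the *Ddit3* difference was not tested.

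*Trib3* encodes a pseudokinase that is induced by ATF4 and CHOP and restrains both. It lies on chromosome 2 (152337422-152344032, minus strand). It was at 1.31 and 1.91 FPKM in WT 1 and WT 3 and listed at 0 in WT 2, and at 1.06, 0.0772 and 1.39 FPKM in KO mice. Both groups thus held a mouse at or near 0, with an estimated 1.01 fragments in KO 2, and 3 fragments in WT 2, the limit that a count of 0 allows, would be 0.167 FPKM. Its mean of 0.958 FPKM was under the 1 FPKM required for the test, and a fit without that filter gave a fold of 0.926 with an interval of 0.433 to 1.98 (exact permutation p = 0.8).

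*Chac1*, on chromosome 2 (119351229-119354381, plus strand), encodes an enzyme that degrades glutathione and is a known target of ATF4. Its level was 1.65, 0.304 and 3.52 FPKM in WT mice, against 1.27, 0.417 and 1.14 FPKM in KO mice. WT 2 and KO 2 were the 2 lowest mice, each with about 4.4 estimated fragments, and they were also the 2 lowest for *Trib3*. The fold was 0.761 with an interval of 0.355 to 1.63 (limma p = 0.444; exact permutation p = 0.5), and the log2 fold change of −0.39 moved to 0.03 without WT 3 and to −0.86 without WT 2.

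*Sesn2* encodes sestrin 2, a leucine sensor that holds back mTORC1 signaling, and lies on chromosome 4 (132492032-132510501, minus strand). It was at 4.79, 8.08 and 4.50 FPKM in WT mice, against 2.12, 4.54 and 6.58 FPKM in KO mice. KO 1 was lowest, WT 2 highest, and the groups overlapped. The fold was 0.768 with an interval of 0.441 to 1.34 (limma p = 0.314; exact permutation p = 0.5). The log2 fold change of −0.38 was −0.03 without KO 1, −0.15 without WT 2 and −0.67 without KO 3.

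The 4 enzymes of amino acid and one-carbon synthesis did not pass the test in either direction, and their log2 fold changes had a median of 0.07. *Asns*, asparagine synthetase, on chromosome 6 (7675169-7693254, minus strand), was at 7.43, 7.53 and 12.3 FPKM in WT mice, against 5.37, 12.7 and 7.06 FPKM in KO mice. WT 3 and KO 2 stood above the other 4 mice, which lay between 5.37 and 7.53 FPKM. The fold was 0.904 with an interval of 0.552 to 1.48 (limma p = 0.659; exact permutation p = 0.6). The 6 neuronal markers summed to 193, 289 and 363 FPKM in WT mice, against 202, 331 and 145 FPKM in KO mice, so WT 3 and KO 2 were also the 2 mice with the highest neuronal sum. The part of these transcripts in the level of *Asns* was not tested. Without KO 1 the log2 fold change of *Asns* was 0.10, without WT 3 it was 0.07 and without KO 2 it was −0.46, against −0.15 with all mice.

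*Phgdh* and *Psat1* encode the first and second enzymes of serine synthesis. *Phgdh*, on chromosome 3 (98313170-98339990, minus strand), was the most abundant member in WT mice, at 47.0, 53.3 and 58.7 FPKM. It spread more widely at 46.5, 34.3 and 80.7 FPKM in KO mice, which included both the highest and the lowest of the 6 values. The means were 53.0 ± 5.88 FPKM in WT mice, against 53.9 ± 24.1 FPKM in KO mice (mean ± SD, n = 3 per group), with a fold of 0.959 and an interval of 0.613 to 1.5 (limma p = 0.84; exact permutation p = 0.9). Its log2 fold change of −0.06 changed sign without KO 2 (0.21), without WT 3 (0.02) and after correction for GC content and length (0.04), and it was −0.39 without KO 3.

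*Psat1*, on chromosome 19 (15904678-15947337, minus strand), had the smallest SE of the members (0.21), at 21.9, 16.3 and 23.3 FPKM in WT mice, against 24.0, 21.5 and 24.6 FPKM in KO mice. Only WT 2 stood apart, below the other 5 mice. The fold was 1.14 with an interval of 0.832 to 1.57 (limma p = 0.368; exact permutation p = 0.3), and the log2 fold change of 0.19 was 0.04 without WT 2 and 0.29 without WT 3. *Mthfd2*, on chromosome 6 (83305691-83325908, minus strand), encodes a mitochondrial enzyme of the folate cycle that is low in most adult tissues. It was at 1.94, 1.95 and 2.27 FPKM in WT mice, against 3.90, 1.83 and 2.51 FPKM in KO mice. KO 1 lay above the rest, and KO 2 was the lowest of all. The fold was 1.2 with an interval of 0.732 to 1.96 (limma p = 0.433; exact permutation p = 0.4).

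**Figure D2:**
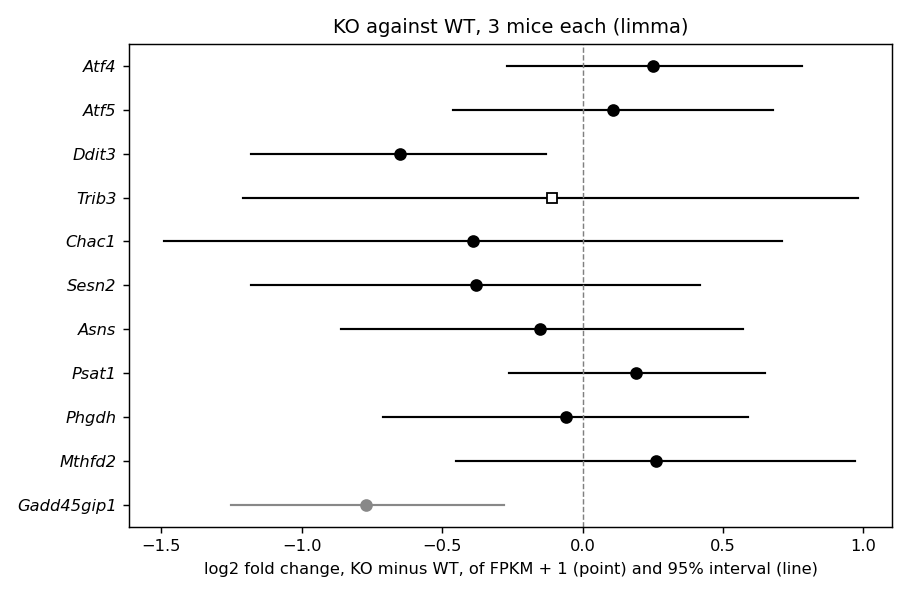
Log2 fold change of KO against WT mice on FPKM + 1 (points) with the 95% interval of each gene from limma (lines), for the 10 genes and, in gray, *Gadd45gip1*. The intervals of *Ddit3* (−1.18 to −0.13) and *Gadd45gip1* (−1.25 to −0.28) lie below 0 and those of the other genes include 0, and the open square marks *Trib3*, fitted without the filter on low values.

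The upper ends of these intervals ranged from 0.917-fold for *Ddit3* to 1.98-fold for *Trib3*. They are intervals of single genes, with no adjustment for their number, and they describe whole microvessel RNA rather than endothelial cells alone. The largest estimate above 0 among the members, that of *Mthfd2*, was 0.26 on the log2 scale. It was 0.05 without KO 1 and 0.44 without KO 2.

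In WT mice the levels ran from *Phgdh* (53.0 FPKM) through *Atf5* (40.1), *Atf4* (28.2), *Psat1* (20.5), *Ddit3* (9.96), *Asns* (9.07), *Sesn2* (5.79), *Mthfd2* (2.05) and *Chac1* (1.83) to *Trib3* (1.07 FPKM). The WT values of *Ddit3* overlapped with those of *Asns*, *Asns* with *Sesn2*, *Mthfd2* with *Chac1* and *Chac1* with *Trib3*, so the order within these pairs is not larger than the spread. With all 6 mice, only the steps from *Atf4* to *Psat1* and from *Psat1* to *Ddit3* stayed free of overlap. *Phgdh* stood above 90.9% of the genes tested in WT mice and *Chac1* above 8.7%.

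The members did not all move together from mouse to mouse. KO 1 held the highest value for 3 of them (*Atf4*, *Atf5* and *Mthfd2*) and the lowest for 3 others (*Ddit3*, *Sesn2* and *Asns*). KO 2 held the highest for 1 and the lowest for 3, and 2 of its 10 values were above the mean of the gene over the 6 libraries, against 7 in WT 3, 3 in WT 2 and 6 in each of WT 1, KO 1 and KO 3. KO 1 and KO 3 also had far more choroid plexus RNA than the others, with the 3 markers *Ttr*, *Folr1* and *Kl* summing to 8670 and 10300 FPKM there, to 2900 FPKM in KO 2 and to 2780 to 3270 FPKM in WT mice. Smooth muscle markers were highest in KO 1 (754 FPKM) and WT 1 (561 FPKM) and between 225 and 381 FPKM elsewhere. The part of either list in the levels of the members was not tested.

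**Figure D3:**
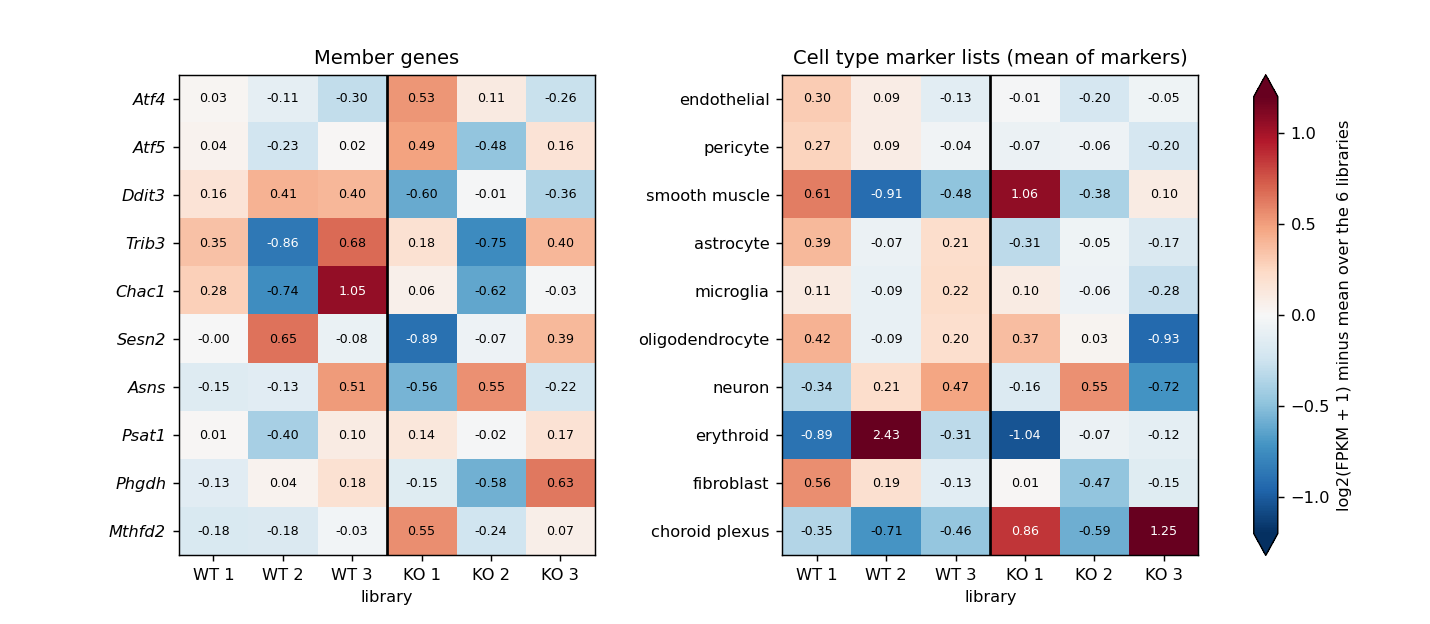
Log2(FPKM + 1) of each of the 10 genes (left) and the mean over the markers of each cell type list (right) in each library, minus the mean over the 6 libraries, with the value printed in each cell and a line between WT and KO mice. *Ddit3* is above its mean in the WT mice and below it in the KO mice, and choroid plexus markers stand at 0.86 and 1.25 in KO 1 and KO 3 and below 0 in the other mice.

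A list of 62 further symbols, ordered by role, held 54 genes of the pathway and 8 of the ER unfolded protein response outside the eIF2alpha branch, and 59 were tested. By adjusted p 0 passed, and at an unadjusted p under 0.05 there were 2 genes higher and 3 lower in KO mice (8.47% of those tested, against 5.88% of all genes tested). All 5 were among the 51 tested genes left without the ER genes (9.8%). The list had a median log2 fold change of −0.01, the same as all genes tested, with 30 genes above 0 and 32 below. Every KO mouse lay above every WT mouse for *Eif2s2* and *Vldlr*, and below for *Aldh18a1*, *Shmt2*, *Slc7a1* and *Slc38a2*, so 2 and 4 of the 62 stood beside 5.37% and 5.70% of all genes tested. Over the 17 settings tried, the unadjusted p was under 0.05 in 15 for *Vldlr*, 13 for *Slc38a2*, 11 for *Cebpb*, 10 for *Aldh18a1* and 5 for *Oma1*. It was lost without WT 2 or KO 3 for *Vldlr*, *Slc38a2*, *Cebpb* and *Aldh18a1*, without WT 1 for *Slc38a2*, *Cebpb* and *Oma1*, without WT 3 for *Aldh18a1* and *Oma1*, without KO 1 for *Slc38a2*, *Aldh18a1* and *Oma1*, and without KO 2 for *Cebpb* and *Oma1*. It was also lost with the replicate block for *Oma1* and *Aldh18a1*, after GC and length correction for *Oma1*, *Aldh18a1* and *Cebpb*, without a filter for *Oma1* and *Cebpb*, and for *Oma1* with the filter at 5 FPKM, the pseudocount of 0.1, quantile normalization and an untrended variance. Among the 15 genes of the list with the ATF4 site core in their promoter window, 6 had a log2 fold change above 0 and 9 below, with a median of −0.13, and for the 36 without it the median was −0.01.

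Of the 4 eIF2alpha kinases, *Eif2ak1* to *Eif2ak4*, which sense heme shortage, double-stranded RNA, ER stress and uncharged tRNA, 0 had an unadjusted p under 0.05. The largest difference was that of *Eif2ak2*, at 11.1, 12 and 9.42 FPKM in WT mice, against 14.1, 10.7 and 13.4 FPKM in KO mice, with a log2 fold change of 0.21 (interval −0.26 to 0.68) that was 0.12 without WT 3, 0.32 without KO 2 and 0.13 after GC and length correction. *Eif2ak1* is the kinase reached from mitochondria through the inner membrane protease OMA1 and its substrate DELE1. *Oma1* was at 2.28, 6.12 and 5.35 FPKM in WT mice, against 9.54, 8.06 and 6.10 FPKM in KO mice. WT 1 was well below the rest, and KO 3 lay just under WT 2. The log2 fold change was 0.73 (SE 0.33; exact permutation p = 0.2; limma p = 0.0491, adjusted p = 0.841), and without WT 1 it was 0.39. *Dele1*, listed under its older symbol 0610009O20Rik, was at 20.9, 23.5 and 21.4 FPKM in WT mice, against 22.7, 15.2 and 19.2 FPKM in KO mice (log2 fold change −0.21, limma p = 0.333, exact permutation p = 0.3).

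Neither the 8 subunits of eIF2 and its exchange factor eIF2B nor the 2 phosphatase subunits that reverse the phosphorylation gave an unadjusted p under 0.05. *Eif2s2*, with the largest value among the former, was higher in every KO mouse (51.5, 48.3 and 63.8 FPKM) than in any WT mouse (35.4, 45.1 and 47.1 FPKM), with a log2 fold change of 0.35 (exact permutation p = 0.1; limma p = 0.12) that was 0.23 without WT 1 or KO 3 and 0.19 after GC and length correction. *Ppp1r15b*, the constitutive phosphatase subunit, had a log2 fold change of −0.05.

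Among 7 genes that hold binding partners of ATF4 and other stress targets, *Vldlr* and *Cebpb* had an unadjusted p under 0.05, in opposite directions, where 2.77% of all genes tested were higher and 3.11% lower at that level. *Vldlr*, a lipoprotein receptor known as an ATF4 target, was at 6.17, 4.38 and 7.11 FPKM in WT mice, against 8.52, 9.07 and 12.4 FPKM in KO mice. Every KO mouse lay above every WT mouse (log2 fold change 0.68, SE 0.25; exact permutation p = 0.1; limma p = 0.0224, adjusted p = 0.841). *Cebpb*, a binding partner of ATF4 and CHOP, was at 12, 9.95 and 8.30 FPKM in WT mice, against 9.10, 5.20 and 3.86 FPKM in KO mice. KO 1 lay within the WT range, and the log2 fold change was −0.71 (SE 0.30; exact permutation p = 0.2; limma p = 0.0387, adjusted p = 0.841), with −0.47 without KO 3 and −1.0 without KO 1.

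Of the 9 further genes of amino acid synthesis, 8 were tested and 1 was lower at an unadjusted p under 0.05, against 3.11% of all genes tested. *Aldh18a1*, which starts proline synthesis from glutamate, was at 10.5, 10.7 and 14.9 FPKM in WT mice, against 8.35, 8.08 and 7.40 FPKM in KO mice, with no overlap (log2 fold change −0.53, SE 0.22; exact permutation p = 0.1; limma p = 0.0378, or 0.0625 with the replicate block, adjusted p = 0.841). *Cth*, which makes cysteine, had the largest difference, 0.69 on the log2 scale (interval −0.38 to 1.76), but WT 2 was listed at 0 and the other values lay between 1.25 and 3.12 FPKM. Without WT 2 the log2 difference was 0.18, without WT 1 it was 1.11, and with a pseudocount of 0.1 it was 1.70.

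Of the 7 amino acid transporters, 1 had a log2 fold change above 0 and 6 below, where 49.2% of all genes tested were above 0. *Slc38a2*, a sodium-coupled importer of neutral amino acids and a known ATF4 target, was the 1 lower at an unadjusted p under 0.05, against 3.11% of all genes tested. It was at 133, 127 and 92.0 FPKM in WT mice, against 71.8, 91.6 and 72.0 FPKM in KO mice, so the groups were separate but WT 3 and KO 2 nearly met. The log2 fold change was −0.57 (SE 0.22; exact permutation p = 0.1; limma p = 0.0276, adjusted p = 0.841). Of 13 genes, 12 for tRNA synthetases and *Xpot* for tRNA export, 7 were above 0 and 6 below, and 0 had an unadjusted p under 0.05. *Yars*, tyrosyl-tRNA synthetase, showed the largest difference, from 23.7, 26.0 and 19.9 FPKM in WT mice to 17.3, 12 and 19.9 FPKM in KO mice (log2 fold change −0.49, limma p = 0.0597, exact permutation p = 0.2). Without KO 2 its log2 fold change was −0.30, and without KO 3 it was −0.64, with an unadjusted limma p of 0.0273.

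The secreted factors GDF15 and FGF21, which are known to signal mitochondrial stress to other organs, were hardly present as transcripts. *Gdf15* was listed at 0 in WT 1, WT 2, KO 1 and KO 2 and was at 0.366 FPKM in WT 3 and 0.712 FPKM in KO 3. *Fgf21* was listed at 0 in every mouse but KO 3, where 0.106 FPKM corresponded to about 1.19 fragments. Neither passed the filter on low values, and no difference was detectable at this depth.

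**Figure D4:**
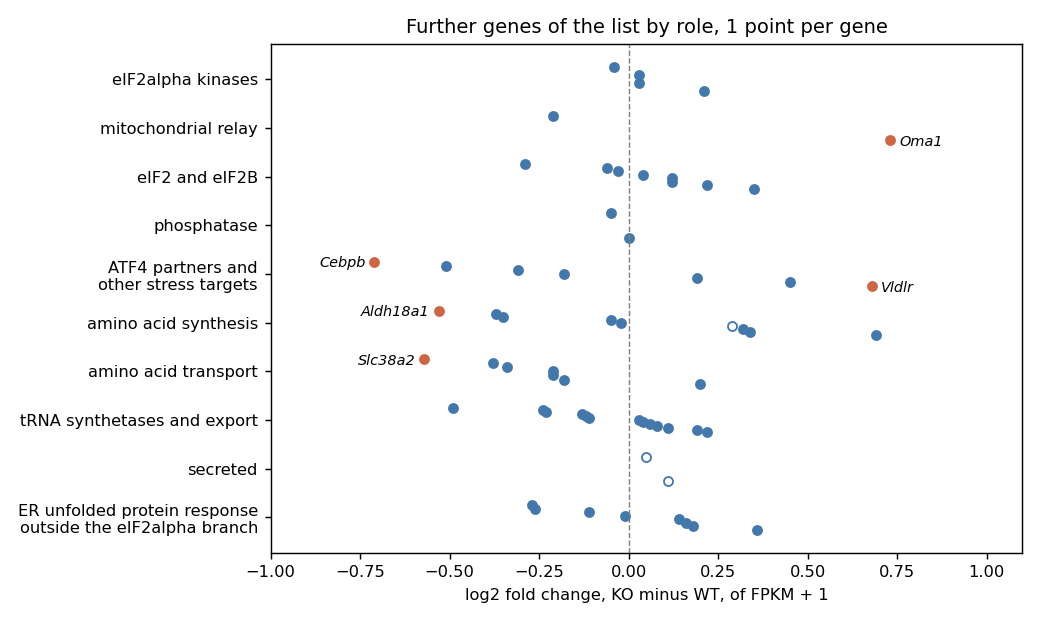
Log2 fold change of KO against WT mice on FPKM + 1 for each of the 62 further genes, 8 of them outside the eIF2alpha branch, in rows by role, with 1 point per gene. Orange marks the 5 genes with an unadjusted limma p under 0.05, 2 higher and 3 lower in KO mice, and open points are the 3 genes under the filter of 1 FPKM.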

How the data were processed

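RNA sequencing of brain microvessels from 3 WT and 3 TEKCRIF1 KO mice was used, with 1 library per mouse. The authors checked reads with FastQC, trimmed them with FASTX_Trimmer and BBMap, mapped them with TopHat (mm10 per the submitters' processing notes) and deposited FPKM values. The gene annotation and the counting tool are not given in the sources used here. Groups and replicate numbers came from the sample titles. The 14247 of 23183 genes whose mean over the libraries reached 1 FPKM entered the test. Values were taken to log2(FPKM + 1), with no further scaling, and fitted by limma 3.58.1 (R 4.3.3) with the trend option. P-values were adjusted over all these genes (Benjamini-Hochberg), and each named gene was also given an exact two-sided permutation test. The study's methods name DESeq2, which needs read counts, and those were not used here.

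Genes were named when they were members, when a gene of the 62-gene list had an unadjusted p under 0.05 or the largest change in its role, or, for 3 genes, when their profile was nearest to that of *Atf4*. *Eif2ak1*, *Dele1*, *Shmt2*, *Slc7a1*, *Xpot*, *Xbp1*, *Herpud1*, *Hspa5*, *Calr*, *Gdf15*, *Fgf21* and marker genes were named after their values were seen. The members and lists were chosen with earlier results of these data known. Length and GC content came from the longest GENCODE M21 transcript, and estimated fragments depend on that length. Depth was estimated from ratios of values under 0.3 FPKM and 4252 genes with 1 transcript, and these floors cover counting error only. Alternatives were other filters, a pseudocount of 0.1, 3 scalings, an untrended variance, a replicate block, correction of each library for GC content and length by loess (span 0.3) and leaving out each library. The fits were tested on simulated data. Promoters were searched with Python 3.11.15.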

Additional observations from a re-analysis of the deposited data

How the results depend on the processing

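The change of *Ddit3* kept its sign under all 16 alternatives, as did those of *Gadd45gip1* (−0.86 to −0.62 with a mouse left out), *Atf4* (0.05 to 0.45), *Sesn2* (−0.67 to −0.03), *Psat1* (0.04 to 0.29) and, where it was fitted, *Mthfd2* (0.05 to 0.44), and 0 of the members passed an adjusted p of 0.05 under any alternative. Same-numbered WT and KO mice had correlations of only 0.04, 0.03 and 0.00 between their deviations, so no shared deviation was seen. Whether the numbers pair the mice is not stated, and these correlations cannot decide it. The replicate numbers are from the sample titles, and the deposited columns carry other numbers, 1 of which is shared by a WT and a KO library. With the replicate block, 871 genes had an unadjusted p under 0.05 in place of 838, and in the list of 62 genes 1 was higher in place of 2 and 2 were lower in place of 3. That list also had 1 gene higher without a filter, with the 5 FPKM filter, with the pseudocount of 0.1, with quantile normalization, without the trended variance and, with or without the block, after GC and length correction, which alone left 1 lower in place of 3. After that correction, with or without the block, the median of the members was 0.02, that of the list 0.00 and *Phgdh* 0.04.

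With each mouse left out, the count over all genes at that unadjusted level ranged from 450 (without WT 2) to 1871 (without KO 2), and without KO 1 it was 510. The number passing adjustment ranged from 0 to 4, with 1 without WT 3 and 4 without KO 2 or KO 3. The median of the members ranged from −0.21 to 0.22, members lower from 0 to 1, and the median of the 62-gene list from −0.09 to 0.08, with 1 to 5 genes higher (5 without KO 2, of which *Hspa5*, *Hsp90b1* and *Calr* are ER genes outside the eIF2alpha branch) and 0 to 2 lower. It was 0.01 without WT 2 and 0.00 without WT 3. Genes that changed sign were *Ppp1r15b* (−0.17 to 0.05; 0.01 without WT 1), *Atf5* (−0.10 to 0.38), *Asns* (−0.46 to 0.10; 0.07 without WT 3), *Chac1* (−0.86 to 0.03) and *Phgdh* (−0.39 to 0.21; 0.02 without WT 3). The cause was not tested. *Trib3*, *Chac1*, *Cth*, *Gdf15* and *Fgf21* had under 5 estimated fragments in at least 1 library.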

Other observations

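The parts of the ER stress response outside the eIF2alpha branch were described with 8 genes, among them chaperones and folding factors of the ER and the transcription factor *Xbp1*. *Herpud1*, a part of ER-associated degradation, was also among them and held the ATF4 site core in its promoter window. Of the 8 genes, 4 had a log2 fold change above 0 and 4 below, with a median of 0.06, and 0 had an unadjusted p under 0.05. *Hsp90b1*, an ER chaperone, had the largest difference, at 152, 138 and 160 FPKM in WT mice, against 235, 144 and 212 FPKM in KO mice (log2 fold change 0.36, or 0.22 without KO 1, limma p = 0.155, exact permutation p = 0.3). *Hspa5*, the chaperone BiP, was at 216, 201 and 204 FPKM in WT mice, against 277, 151 and 284 FPKM in KO mice, so KO 1 and KO 3 lay above and KO 2 below the WT range. *Calr*, calreticulin, had the KO mice on the same sides of the WT range, at 546, 633 and 662 FPKM in WT mice, against 855, 464 and 804 FPKM in KO mice. Without KO 2, the KO mouse below the other 2 for these genes, the log2 fold changes were 0.57, 0.44 and 0.44, with limma p-values before adjustment of 0.0049, 0.0136 and 0.0221 and after it of 0.209, 0.275 and 0.305. In that fit 13.1% of all genes had an unadjusted p under 0.05, and the genes and the mouse were chosen after the values were seen. KO 1 and KO 3 were also the 2 mice with the high choroid plexus markers (8670 and 10300 FPKM in sum), and the part of that RNA was not tested.

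The 3 genes nearest to *Atf4* over the 6 libraries, among 3782 genes within 2-fold of its mean level, were *Sorbs2*, *Smarcd2* and *Polr2g*, with root mean square differences of 0.065, 0.0959 and 0.0961 on the centered log2 scale. Among the members the nearest was *Mthfd2* (0.243) and the farthest *Sesn2* (0.721), where a gene with no variation at all would be at 0.279.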
